A study of Mus musculus with 9 samples.

Results

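The splicing factors and RNA-binding proteins described here are the probe sets that the platform annotation assigns to a single gene whose symbol begins with Srsf, Hnrnp, Snrp, Sf3a, Sf3b, Prpf, U2af, Tra2, Ptbp, Rbm, Celf, Elavl, Ddx or Dhx, together with Dicer1. The array carries 150 such probe sets, for 109 genes, among 12488 probe sets in all. Khsrp belonged to the same definition and matched no probe set. The families were selected on measured values, because Srsf1, Hnrnpa2b1 and Dicer1 had higher signals in Cd1d knockout than in wild-type skin in these same arrays. The differences between the genotypes given below are therefore a description: no p-value is given for any member or for the group, and counts from the fit over the whole array stand only beside the share of all probe sets.

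Whole skin was taken from 5 Cd1d knockout mice (Cd1d -/-, C57BL/6 background) and from 4 wild-type mice (Cd1d +/+, C57BL/6), none of them irradiated with UVB. Cd1d encodes an antigen-presenting molecule that displays lipids to natural killer T cells. The mice were matched for age and sex, although the age, the sex and the allele are not given in the sources used here. Each mouse had its own Affymetrix MG-U74 array, where sets of short oligonucleotide probes, sometimes several to a gene, read the transcripts, so the SD between arrays includes the spread between animals. Signals are in the arbitrary units of MAS5, the array maker's summary program, and differences are log2 knockout minus wild type throughout.

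Removal of introns from pre-mRNA is carried out by the spliceosome, which assembles on each intron from small nuclear ribonucleoproteins (snRNPs) and many further proteins. SR proteins such as Srsf1 bind exons and generally favour the use of nearby splice sites, and hnRNP proteins coat nascent transcripts and often act in the opposite sense. RNA helicases of the DEAD-box (Ddx) and DEAH-box (Dhx) families remodel RNA and RNA-protein complexes from splicing to translation and decay, and Dicer1 cuts microRNA precursors into mature microRNAs. Most of these factors are widely expressed, while a few are known mainly from neurons or germ cells, and a signal from whole skin is a sum over keratinocytes, fibroblasts, immune cells and muscle.

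The sequences that lie upstream of the 3 genes behind the choice of the group are shown because those genes were picked for sharing a direction. They are the 250 bases before the transcription start from RefSeq's table for mouse build GRCm38.p6, 5′ to 3′ on the strand of the gene, with a match to a searched motif in capitals. The Srsf1 stretch is chr11:88047123-88047372 (+), that of Hnrnpa2b1 is chr6:51469895-51470144 (-) and that of Dicer1 is chr12:104751953-104752202 (-). Each ends at the base before an annotated transcription start. Hnrnpa2b1 has 2 windows in the table, of which 1 is printed.
Srsf1: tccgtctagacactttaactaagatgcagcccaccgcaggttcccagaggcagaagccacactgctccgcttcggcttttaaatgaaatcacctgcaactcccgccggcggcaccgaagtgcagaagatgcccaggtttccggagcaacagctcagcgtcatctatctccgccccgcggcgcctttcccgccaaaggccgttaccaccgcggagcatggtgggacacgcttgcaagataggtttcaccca
Hnrnpa2b1: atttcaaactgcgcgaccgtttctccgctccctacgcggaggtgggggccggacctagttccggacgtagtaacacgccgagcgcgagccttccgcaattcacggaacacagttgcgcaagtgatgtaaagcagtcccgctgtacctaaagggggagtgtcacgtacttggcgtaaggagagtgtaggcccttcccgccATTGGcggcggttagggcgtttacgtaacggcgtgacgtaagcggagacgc
Dicer1: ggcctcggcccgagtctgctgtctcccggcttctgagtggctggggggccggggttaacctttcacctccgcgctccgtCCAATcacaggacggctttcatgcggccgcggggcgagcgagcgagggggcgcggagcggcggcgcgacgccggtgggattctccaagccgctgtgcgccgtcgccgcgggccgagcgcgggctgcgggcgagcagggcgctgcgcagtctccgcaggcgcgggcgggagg

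The motifs searched, on both strands, were TATAAA (the TATA box), CCAAT (the CCAAT box), CCGGAAG (an ETS-type site), CACGTG (an E-box), AAGATGGC (a YY1-type site) and the palindromic NRF1 motif. The Hnrnpa2b1 and Dicer1 stretches each held 1 CCAAT match, read as ATTGG on the printed strand of Hnrnpa2b1, and the Srsf1 stretch held 0 matches. Of the 109 genes, 98 had a promoter in the table, and the 85 genes with a usable signal had 111 windows. CCAAT was found in 48 of these windows (43.2%), against 34.5% of the 6092 windows of all genes with a usable signal and 33.9% of all 32851 windows. CCGGAAG was found in 28 (25.2%), against 13.0% and 6.91%. The reverse held for CACGTG, found in 3 windows (2.70%), against 8.80% and 6.02%. TATAAA was found in 9 windows (8.11%), against 7.53% and 12.4%, while the NRF1 and YY1 motifs were each found in 1 window (0.901%), against 1.51% and 0.782% for NRF1 and 1.89% and 1.57% for YY1. The median GC content was 60.8% in the members' windows, 59.6% in the windows of all genes with a usable signal and 52.4% in all windows. These are descriptions of letters and not of bound factors.

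Before the group is described, the state of the arrays bears on every value. Cd1d1, the gene targeted in the knockout, read 58.2, 65.0, 79.6, 47.6 and 51.1 in knockout 1 to 5, against 112.4, 101.1, 91.0 and 130 in wild type 1 to 4 (exact two-sided permutation test, p = 0.0159). Whether its probes lie in the deleted part is unknown. Epidermal and dermal markers were strong, with Krt10 averaging 6835 ± 845 in the knockout and 6333 ± 403 in the wild-type mice, Dcn 6848 ± 887 and 8023 ± 529 and Col1a1 5111 ± 1439 and 3465 ± 985 (SD, n = 5 and 4), although the probe sets of Krt5 and Krt14, keratins of the basal epidermis, were too dim to be usable. Knockout 4 and wild type 2 stood apart from the rest, with the lowest median correlation to the other arrays (0.911 and 0.925, against 0.931 to 0.950). The deposited values carry 7 decimals in 2 knockout and 3 wild-type arrays and 9 decimals in 3 knockout and 1 wild-type array, and what this difference marks is not given in the sources used here.

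A probe set counted as usable where 4 or more of the 9 arrays gave it a signal that reached their own 40th percentile, a level of 43.4 to 53.3 units. Of the 150 member probe sets 118 met it, for 94 genes, and so did 7658 probe sets over the whole array. The 32 that did not meet it include those of Elavl2, Elavl3 and Elavl4, the neuronal members of the Hu family, none of which exceeded 16.8 in any mouse. Ddx4, a helicase of germ cells, read 5.5 to 32.4 in knockout and 11.8 to 23.9 in wild-type skin, and the 2 probe sets of Ddx25, a testis helicase, read 0.9 to 63.5 and 1.7 to 52.4. Several widely expressed genes also had dim probe sets, among them Hnrnpc (42.5 ± 5.30 in knockout mice, 46.2 ± 5.65 in wild-type mice) and Prpf4b, a kinase of the spliceosome (38.8 ± 5.66 and 26.5 ± 5.41; SD, n = 5 and 4). A dim probe set may be a poor probe set, so these values say little of the transcript. A further 10 probe sets that the annotation shares between a member gene and another gene were left out.

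Most of the 118 usable member probe sets had a higher mean log2 signal in knockout than in wild-type skin. The difference was above 0 in 89 of them (75.4%), where 51.2% of all usable probe sets had one above 0. Their median difference was 0.17, against 0.01 over all usable probe sets. Differences above 0.5 were found in 12 members (10.2%, with 4.94% over all), and 1 member, Snrpb2, lay below -0.5 (0.847%, with 3.32% over all). None passed at an adjusted p of 0.05 in limma, a linear model whose variances are shared across probe sets, fitted over all 7658 of them, a threshold that 4 probe sets (0.0522%) passed. At limma's unadjusted threshold of 0.05 stood 16 members (13.6%), where 9.4% of all usable probe sets did: 15 members lay higher in knockout skin, where 5.45% of all usable probe sets did, and 1 member (Rbm38) lay lower, where 3.96% of all did. Over the whole array these were 417 probe sets higher and 303 lower, a split that median centring of the arrays turned to 309 higher and 379 lower, with 9 members higher and 1 lower. In 6 members (5.08%) every knockout value lay above every wild-type value, where 1.8% of all usable probe sets showed this, and in 0 members did every knockout value lie below, where 1.38% of all did (3.19% of all in either direction). Because the group was built on this contrast, nothing is read from these shares. In whole tissue, fewer cells of a type and less RNA per cell cannot be told apart.

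**Figure D1:**
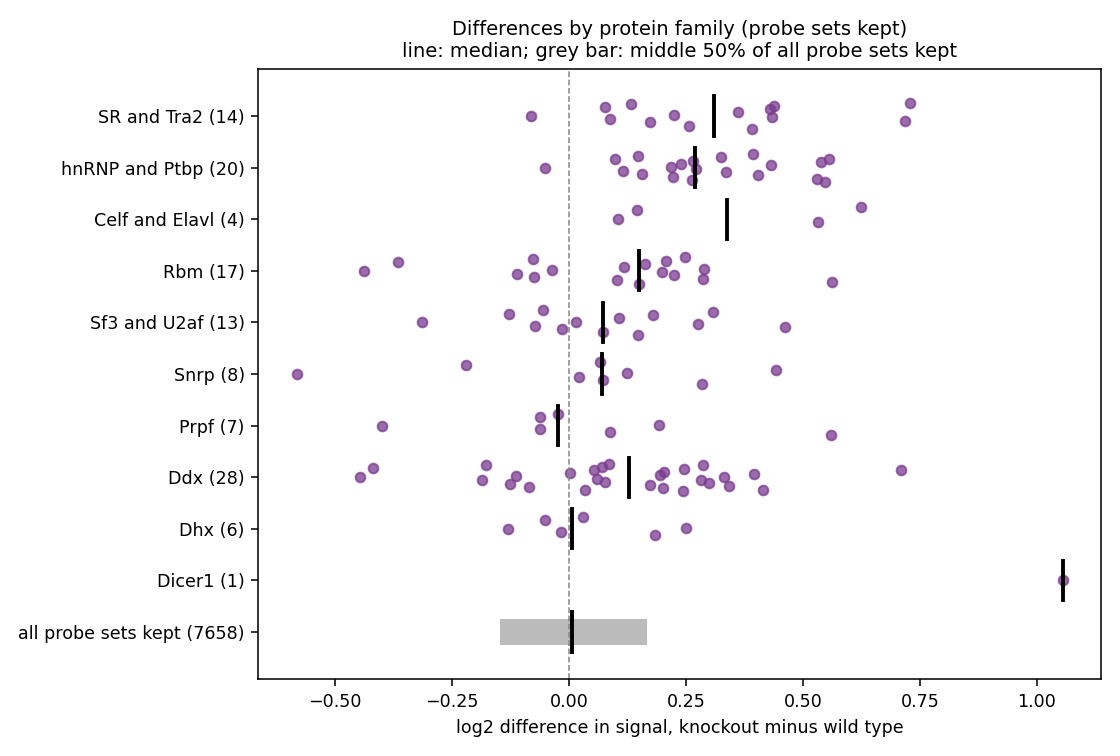
Log2 difference in signal, knockout minus wild type (x axis), for each of the 118 usable member probe sets (points), by protein family (y axis, number of probe sets in parentheses). Black lines are medians and the grey bar spans the middle 50% of all 7658 usable probe sets. The SR and hnRNP families lie mostly right of 0 (medians 0.31 and 0.27), while the Prpf and Dhx families straddle it (-0.02 and 0.01). Without wild type 2 the SR and hnRNP medians were 0.24 and 0.16.

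One wild-type mouse carried a large share of this difference. Each member was centred on its mean over the 9 arrays, and the median over the 118 members was then taken in each array. It was 0.13, 0.10, 0.03, 0.22 and 0.03 in knockout 1 to 5, against -0.04, -0.29, -0.05 and 0.05 in wild type 1 to 4. Wild type 4 thus lay within the knockout range, wild type 1 and 3 lay just below it, and wild type 2 lay far below all others. Wild type 2 gave the lowest of the 9 signals in 58 members (49.2%), where it did so in 21.8% of all usable probe sets. Knockout 4 gave the highest signal in 40 members (33.9%), where it did so in 21.1% of all. Without wild type 2 the member median was 0.08, with 80 members above 0, and without both wild type 2 and knockout 4 it was 0.07, with 76 above 0. Over all usable probe sets the median of the same differences was -0.01 in both cases. Within the arrays of 7 decimals the member median was 0.19 and within those of 9 decimals, which hold 1 wild-type mouse, it was 0.09.

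The pull of wild type 2 was not the same in each family. It was the lowest array for 16 of 20 hnRNP, 8 of 14 SR and 15 of 28 Ddx probe sets (80%, 57.1% and 53.6%). The same held for 7 of 17 Rbm, 3 of 6 Dhx and 3 of 4 Celf and Elavl probe sets (41.2%, 50% and 75%). Lower counts were 2 of 7 Prpf probe sets (28.6%), 2 of 13 in the Sf3 and U2af family (15.4%) and 1 of 8 among the Snrp proteins (12.5%). Over all usable probe sets the share was 21.8%. RNA quality can be followed by the ratio of 3' to 5' probe sets of control genes. For Pcx that ratio was 2.02 to 2.49 in the knockout arrays and 2.06, 3.49, 4.06 and 2.41 in wild type 1 to 4, so that wild type 2 was high but wild type 3 was higher. For Actb it was 1.01 to 1.14 in knockout and 1.11 to 1.21 in wild-type arrays. For Gapdh it was 0.871 to 0.906 in the knockout arrays and 0.861, 0.905, 1.03 and 0.903 in wild type 1 to 4, with wild type 2 inside the knockout range. The part of RNA quality in the members' values was not tested.

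**Figure D2:**
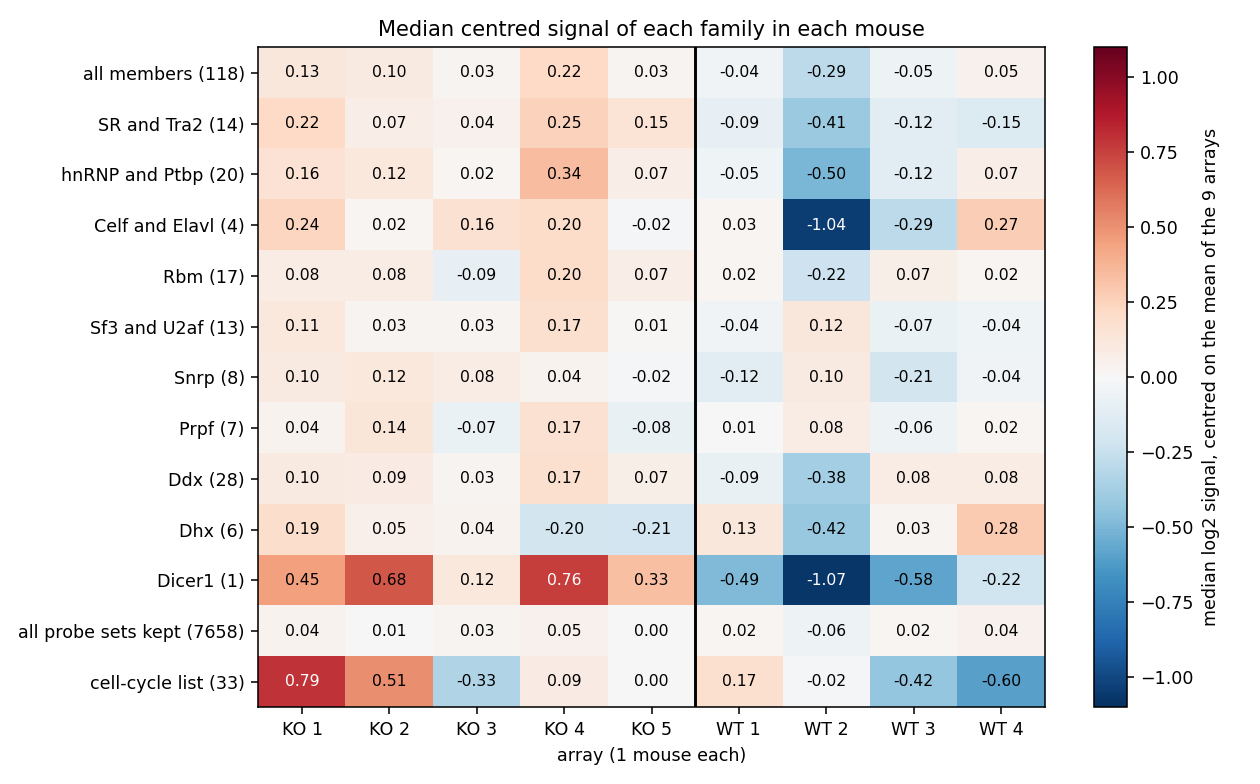
Median log2 signal of each family in each mouse, centred on the mean of the 9 arrays (colour and printed value; blue is low, red is high), with knockout arrays (KO 1 to KO 5) left of the line and wild-type arrays (WT 1 to WT 4) right of it. Rows give the number of probe sets, and the last 2 show all 7658 usable probe sets and a list of cell-cycle genes. Wild type 2 is the bluest array for the hnRNP (-0.50), SR (-0.41) and Ddx (-0.38) rows but not for the Sf3 and U2af (0.12), Snrp (0.10) and Prpf (0.08) rows.

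Markers of other cells and cell states also moved between the mice. The cell-cycle list (33 usable probe sets, 30 of them above 0, median difference 0.50) had centred medians of 0.79, 0.51, -0.33, 0.09 and 0.00 in knockout 1 to 5, against 0.17, -0.02, -0.42 and -0.60 in wild type 1 to 4, with a summed signal of 4311 to 9432 in knockout and 3660 to 5859 in wild-type skin. The hair follicle list (20 probe sets, all above 0) had medians of 1.32, 3.17, -0.82, -2.07 and 2.71 in the knockout mice against -0.92, -1.64, 0.02 and -1.02 in the wild-type mice, with a summed signal of 2542 to 44670 and 2150 to 4875. In a fit that took the hair follicle medians as a covariate, the member median was 0.16. The 20 macrophage and dendritic cell probe sets were all below 0 (median -0.35), with a summed signal of 24000 to 31480 in knockout and 31830 to 38290 in wild-type skin. The 16 skeletal muscle probe sets, 15 of them below 0 (median -0.21), had centred medians of -0.19, 0.14, 0.00, -0.29 and -0.23 in knockout 1 to 5, against 0.02, 0.57, 0.10 and -0.12 in wild type 1 to 4, with a summed signal of 47440 to 56230 and 51460 to 76440. Wild type 2 was thus the highest and knockout 4 the lowest array for muscle genes, where they were the lowest and the highest for the members.

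Of 12 fibroblast probe sets 8 lay above 0 (median 0.43), with centred medians of 0.33, 0.18, -0.38, 0.40 and 0.21 in knockout 1 to 5, against 0.24, 0.07, -0.44 and -0.64 in wild type 1 to 4 and a summed signal of 18500 to 28730 and 18100 to 24320. The 4 erythroid probe sets all lay below 0 (median -1.19), 2 of them past limma's adjusted threshold, with a summed signal of 1356 to 2043 in knockout and 3362 to 5093 in wild-type skin. All 9 endothelial probe sets lay below 0 (median -0.17), as did 4 of 5 neuronal and glial ones (-0.15). Above 0 lay 6 of 9 probe sets of interfollicular keratinocytes (median 0.10), 7 of 10 of adipocytes (0.16) and 4 of 5 of T cells (0.06). The part of these cells and of cell-cycle activity in the members' values was not tested.

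Among the SR proteins, 13 of 14 usable probe sets lay above 0, with a median of 0.31 that was 0.24 without wild type 2. Srsf1, the founding SR protein, is read by 4 probe sets, of which 2 were usable. The first (104586_at) read 134, 117, 120, 135 and 135 in knockout 1 to 5, against 74.6, 67.8, 90.0 and 81.1 in wild type 1 to 4. The second (160539_at) gave 142, 129, 102, 143 and 116 in the knockout mice and 98.3, 53.7, 69.5 and 89.1 in the wild-type mice. In both, every knockout mouse lay above every wild-type mouse, and the means were 128 ± 8.97 against 78.4 ± 9.46 (log2 0.72, SE 0.14) and 126 ± 17.7 against 77.7 ± 20.0 (log2 0.73, SE 0.20; SD, n = 5 and 4). The 2 dim probe sets of Srsf1 averaged 20.5 and 16.8 in knockout and 14.4 and 12.2 in wild-type skin, and the groups overlapped in both.

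Tra2b (160364_at, chromosome 16), which binds purine-rich exonic enhancers beside the SR proteins, read 628, 431, 412, 425 and 477 in knockout 1 to 5, against 394, 369, 410 and 298 in wild type 1 to 4. The groups did not overlap, but the lowest knockout and the highest wild-type mouse were almost equal, and the log2 difference was 0.36 (SE 0.16). Srsf2, which binds exonic enhancers of both purine- and pyrimidine-rich kinds, is read by 2 probe sets whose differences were 0.43 (SE 0.20) and 0.39 (SE 0.19). The brighter of them read 3497, 3539, 3231, 1912 and 3749 in knockout 1 to 5, against 2473, 1979, 2648 and 2414 in the wild-type mice. Knockout 4 alone lay below the wild-type range in that probe set, and without it the difference was 0.57.

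The other SR proteins overlapped between the genotypes. Srsf10, which is known as a repressor of splicing when dephosphorylated, differed by 0.44 (SE 0.23) and 0.26 (SE 0.28) in its 2 probe sets. Srsf11 read 441 to 495 in knockout skin and 216 to 541 in wild-type skin, so that the tight knockout group lay inside the wide wild-type one (log2 0.43, SE 0.22; 0.21 without wild type 2). Srsf6, Srsf3 and Srsf9 gave 0.22, 0.17 and 0.13, each with an SE of 0.12 to 0.16. Srsf5, one of the bright SR transcripts, averaged 909 ± 171 in the knockout mice against 875 ± 258 (log2 0.09, SE 0.21), and the 2 probe sets of Srsf4 lay on either side of 0 at 0.08 and -0.08.

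**Figure D3:**
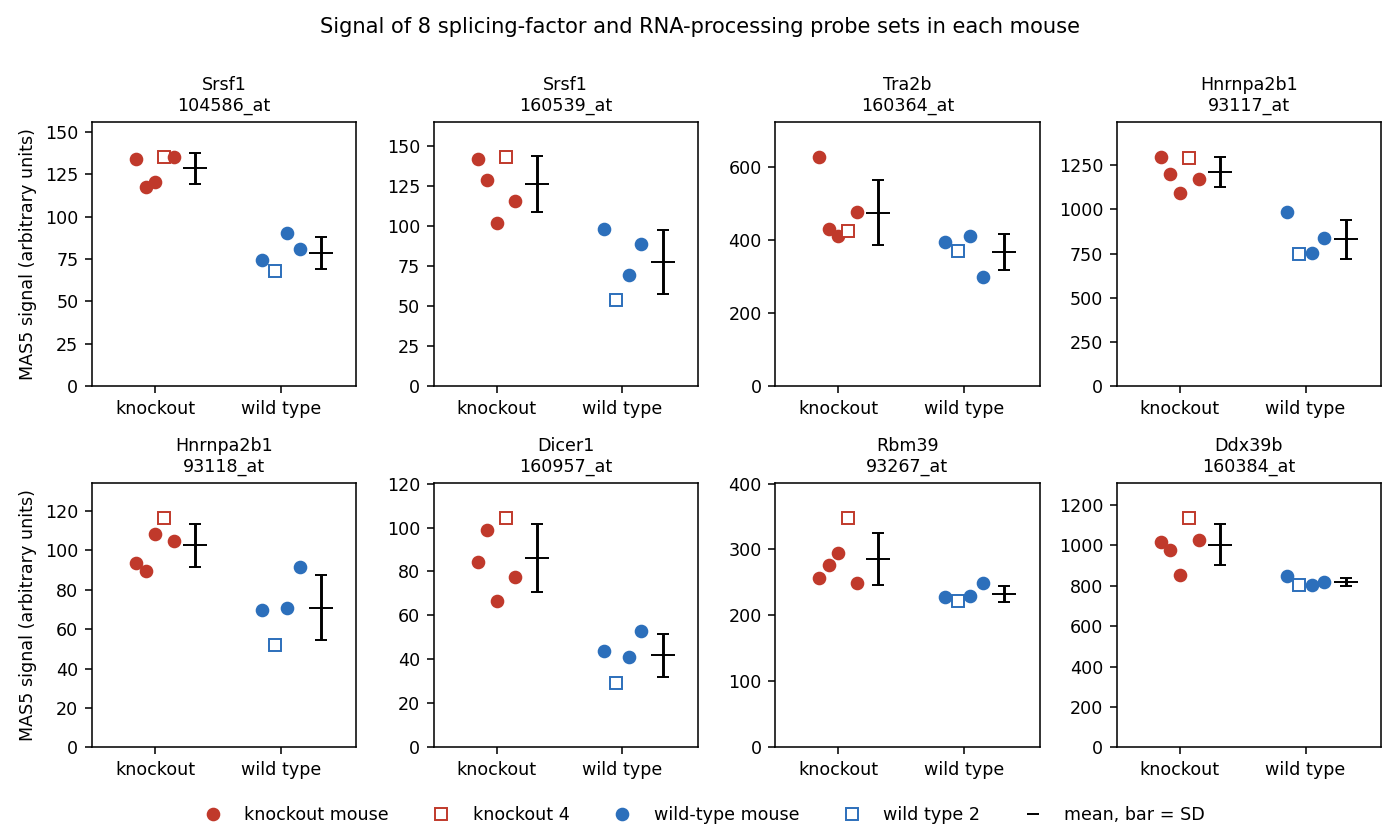
MAS5 signal in arbitrary units (y axis, from 0) of 8 probe sets in each mouse, knockout left and wild type right; open squares mark knockout 4 and wild type 2, and bars give mean and SD. The 2 groups do not overlap for both probe sets of Srsf1 and for Tra2b, the first of Hnrnpa2b1, Dicer1 and Ddx39b, they overlap for the second of Hnrnpa2b1, and they meet at 249.4 for Rbm39.

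In the hnRNP family, including the polypyrimidine-tract binding proteins (Ptbp), 19 of 20 usable probe sets lay above 0, with a median of 0.27 that was 0.16 without wild type 2. Hnrnpa2b1, which acts in splicing and in the transport and sorting of RNAs, is read by 2 usable probe sets. The brighter (93117_at) read 1298, 1199, 1094, 1289 and 1171 in knockout 1 to 5, against 984, 747, 754 and 841 in wild type 1 to 4. Every knockout mouse lay above every wild-type mouse there (1210 ± 85.3 against 831 ± 110, SD, n = 5 and 4; log2 0.55, SE 0.12). The dimmer (93118_at) gave 89.7 to 116.5 against 51.7 to 91.6, a log2 difference of 0.56 (SE 0.19) in which wild type 4 exceeded knockout 2.

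Hnrnpr and Hnrnph1 were next in the hnRNP family. Hnrnpr, which binds RNA through several recognition motifs, read 240, 200, 175, 222 and 179 in knockout 1 to 5, against 146, 120, 122 and 178 in wild type 1 to 4. Only wild type 4 reached into the knockout range, and the difference was 0.53 (SE 0.16; 0.46 without wild type 2). Hnrnph1, which binds G-rich elements, read 818, 919, 793, 1049 and 852 against 647, 371, 687 and 824. Its difference of 0.54 (SE 0.20) was 0.30 without wild type 2, the mouse at 371.

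Wild type 2 set much of the difference in several other hnRNP genes. Hnrnpm read 564 to 816 in knockout skin, against 712, 278, 586 and 606 in wild type 1 to 4, and its difference was 0.43 with wild type 2 and 0.14 without it. Hnrnpu, a nuclear matrix-associated protein, gave 0.39 and 0.13 in the same way, and Hnrnpa1, a repressor of exon inclusion, 0.16 and -0.26. Ptbp2, the neuronal relative of Ptbp1, gave 0.40 and 0.20. Both usable probe sets of Hnrnpdl lay above 0, at 0.34 (SE 0.16) and 0.26 (SE 0.13), while Hnrnph2 was the 1 member of the family below 0 (39.6 to 67.6 against 42.7 to 70.0; log2 -0.05, SE 0.23).

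Celf and Elavl proteins bind GU-rich and AU-rich elements and act on splicing and mRNA stability. The 4 usable probe sets all lay above 0, with a median of 0.34 that was 0.18 without wild type 2. Celf1, known for promoting the decay of GU-rich mRNAs, read 90.5, 53.7, 73.0, 100.8 and 75.7 in knockout 1 to 5, against 85.0, 25.9, 45.2 and 62.6 in wild type 1 to 4. The groups overlapped widely and the difference of 0.62 (SE 0.33) was 0.31 without wild type 2. The 2 probe sets of Celf2 gave 0.53 and 0.11, and 0.13 and -0.14 without that mouse. Elavl1, or HuR, a ubiquitous stabiliser of AU-rich mRNAs, averaged 414 ± 21.3 in the knockout mice against 382 ± 89.2 (log2 0.15, SE 0.16).

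Dicer1 had the largest difference of the 118 probe sets on the log2 scale without a pseudocount. Its 1 probe set (160957_at) read 84.1, 98.9, 66.7, 104.4 and 77.5 in knockout 1 to 5, against 43.9, 29.4, 41.3 and 53.0 in wild type 1 to 4. The groups did not overlap (86.3 ± 15.4 against 41.9 ± 9.73, SD, n = 5 and 4; log2 1.06, SE 0.23; 0.90 without wild type 2). All 5 knockout signals reached the usable level of their array, but among the wild-type mice only that of wild type 4 did. The probe set thus met the filter through the knockout mice. Its wild-type mean lies below the 43.4 to 53.3 units of the usable level, where MAS5 signals have a large relative error. With 64 units added to every signal the difference was 0.50, below the 0.51 of the brighter Hnrnpa2b1 probe set. Other proteins of the microRNA pathway, from a list that does not overlap the members, did not share one direction. Of 7 probe sets 4 lay above 0, with a median of 0.14, and 0 passed limma's test over all probe sets or reached its unadjusted threshold of 0.05. Tarbp2, a partner of Dicer1, gave 0.36 (SE 0.19), and Ago2, the Argonaute protein that cleaves target RNAs, 0.35 (SE 0.22). Tnrc6a, which works with Argonaute in silencing, gave -0.12 (SE 0.29), and Tsnax, a subunit of the nuclease C3PO, -0.02 (SE 0.10).

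The families of the core spliceosome had medians nearer to 0 than the SR and hnRNP families, a difference between families that was not tested. Sf3a and Sf3b proteins belong to the U2 snRNP that binds the branch site, and U2af1 and U2af2 recognise the 3' splice site. In this family 8 of 13 probe sets lay above 0, with a median of 0.07 that was 0.13 without wild type 2. Sf3a1 read 169, 179, 126, 215 and 164 in knockout 1 to 5, against 136, 153, 92.6 and 115 in wild type 1 to 4. The groups overlapped, and the difference was 0.46 (SE 0.19; 0.57 without wild type 2). Sf3b1, the branch-site factor often mutated in myeloid disease, gave 0.31 (SE 0.18) and 0.18 (SE 0.21) in 2 probe sets. U2af1, which reads the terminal AG of the intron, read 561 to 670 in knockout skin and 412 to 572 in wild-type skin (log2 0.27, SE 0.13). Its partner U2af2 averaged 2000 ± 395 against 2065 ± 109 (log2 -0.07, SE 0.16), with knockout 4 alone, at 1322, below the wild-type range of 1941 to 2196. Sf3a2 lay below 0 in both of its probe sets, at -0.31 (SE 0.19) and -0.13 (SE 0.29).

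Snrp proteins include the Sm proteins that ring the spliceosomal RNAs and proteins specific to U1 or U2. Of 8 probe sets 6 lay above 0, with a median of 0.07 that was 0.16 without wild type 2. The Sm protein Snrpd3 read 178, 151, 143, 193 and 141 in knockout 1 to 5, against 124, 157, 110 and 89.2 in wild type 1 to 4. Wild type 2 was the highest of the wild-type mice here, and the difference of 0.44 (SE 0.18) was 0.58 without it. The Sm proteins Snrpe and Snrpg showed the same high wild type 2, at 798 and 710, against 483 to 498 and 435 to 472 in the other wild-type mice. Their differences were 0.07 and 0.12 with that mouse and 0.24 and 0.28 without it.

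Snrpb2, a protein of the U2 snRNP, had the most negative difference of the 118 probe sets over all 9 arrays. It read 153, 135, 166, 55.8 and 137 in knockout 1 to 5, against 214, 154, 180 and 182 in wild type 1 to 4. Knockout 4 was far below the rest, and the difference of -0.58 (SE 0.28) was -0.30 without it. Another probe set of Snrpb2, too dim to be usable, averaged 30.5 in knockout and 31.3 in wild-type skin. The Sm protein Snrpb, among the brightest of the members, read 4782, 5026, 5414, 2291 and 4951 against 5323, 4977, 5051 and 4719, and its difference of -0.22 was 0.01 without knockout 4. The usable probe sets of Snrpb2 and Snrpb both carry the suffix _r, which marks probes chosen under relaxed rules. Snrpa1, also of the U2 snRNP, gave 0.29 (SE 0.19), and Snrpc, of the U1 snRNP, 0.07 (SE 0.14). The probe set of the pseudogene Snrp1c-ps2 ranged from 94.2 to 360 in knockout and from 108 to 335 in wild-type skin and may share signal with its parent gene, so its 0.02 is uncertain.

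Knockout 4 read low more often in some types of probe set than in others. It was the lowest of the 9 arrays in 8 of the 19 usable member probe sets whose names end in _r_at, _f_at or _i_at (42.1%), suffixes that mark relaxed, family-wide or incomplete probe choices, and in 6 of the 99 others (6.06%). Over all usable probe sets those shares were 40.3% of 1054 and 16.9% of 6604. The low readings of knockout 4 in U2af2, Rbm4b and the brighter probe set of Srsf2 came from probe sets without these suffixes. The 19 had a median difference of -0.11 with 7 above 0, and the 99 others had a median of 0.20 with 82 above 0. Over the whole array the median differences were -0.09 and 0.02. The median centred signal of knockout 4 itself was -0.23 in all usable probe sets with these suffixes and 0.08 in all others. The suffixed probe sets of knockout 4 thus read low well beyond the members.

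Prpf proteins work in the tri-snRNP and the catalytic spliceosome. Of 7 probe sets 3 lay above 0, and the median was -0.02. Prpf38b read 218, 211, 220, 227 and 205 in knockout 1 to 5, against 137, 89.3, 175 and 215 in wild type 1 to 4. The knockout mice formed a narrow group that only wild type 4 reached, and the difference of 0.56 (SE 0.21) was 0.32 without wild type 2. Prpf8, which holds the catalytic centre, averaged 468 ± 65.6 against 473 ± 25.9 (log2 -0.02, SE 0.13), and Prpf6, a bridge within the tri-snRNP, 507 ± 39.7 against 531 ± 59.9 (log2 -0.06, SE 0.12). Prpf31 gave 0.19 (SE 0.24). The ubiquitin ligase Prpf19 was read by a bright probe set at 0.09 (SE 0.11) and by a dim family-wide one at -0.40 (SE 0.30).

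RNA-binding motif (Rbm) proteins are a mixed group of splicing regulators, exon junction proteins and mRNA stability factors. Of 17 probe sets 11 lay above 0, with a median of 0.15 that was -0.00 without wild type 2. Rbm39 (93267_at, chromosome 2), a splicing factor related to U2af2, read 256, 277, 294, 348 and 249 in knockout 1 to 5, against 228, 222, 229 and 249 in wild type 1 to 4. Knockout 5 and wild type 4 were equal at 249.4, all other knockout mice lay above, and the difference was 0.29 (SE 0.13). Its second probe set gave 0.16, and -0.19 without wild type 2. Rbmx, or hnRNP G, gave 0.56 (SE 0.31) and 0.21 (SE 0.17), and the first of these was 0.24 without wild type 2. Rbmxl1, a retrogene of Rbmx, gave 0.29 (SE 0.14), although the 2 genes are similar enough that their probes may share signal.

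Rbm38 and Rbm4b were the Rbm genes furthest below 0. Rbm38, a p53 target that binds and stabilises mRNAs such as that of p21, read 270, 360, 346, 438 and 311 in knockout 1 to 5, against 391, 550, 446 and 386 in wild type 1 to 4. Knockout 4 alone exceeded the lowest wild-type mouse, and the difference was -0.37 (SE 0.16). Rbm4b, a splicing regulator, read 114 in knockout 4 and 205 to 285 in the other knockout mice, against 277 to 319 in wild-type skin. Its difference of -0.44 (SE 0.25) was -0.20 without knockout 4. Rbm42 averaged 462 ± 26.0 against 489 ± 45.7 (log2 -0.08, SE 0.11).

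DEAD-box helicases formed the largest family, with 28 usable probe sets for 18 genes, of which 21 probe sets lay above 0 (median 0.13, and 0.05 without wild type 2). Ddx39b (160384_at, chromosome 17), or UAP56, which helps the U2 snRNP to assemble and links splicing to mRNA export, read 1016, 976, 855, 1136 and 1028 in knockout 1 to 5, against 846, 805, 805 and 817 in wild type 1 to 4. The wild-type mice formed a narrow group that lay just below the lowest knockout mouse (1002 ± 102 against 818 ± 19.5, SD, n = 5 and 4; log2 0.29, SE 0.11). Ddx6, a translational repressor of processing bodies, was above 0 in its 3 probe sets. The one with the largest difference read 172, 109, 85.4, 98.7 and 118 against 69.5, 36.5, 105 and 86.2, groups that overlapped (log2 0.71, SE 0.30; 0.40 without wild type 2), and the other two gave 0.41 and 0.34.

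Ddx3x, a helicase of translation initiation, gave 0.40 (SE 0.19) and 0.20 (SE 0.16). Ddx5 and Ddx17 are paired helicases that act in splicing and in the first step of microRNA processing. Ddx5 gave 0.28, Ddx17 0.24 and 0.04, and without wild type 2 these were 0.05, 0.06 and -0.17. Among helicases of ribosome biogenesis, Ddx18 gave 0.20 and 0.05, Ddx47 0.00 and -0.11, Ddx56 -0.09 and Ddx54 0.06. Ddx27 was the lowest of them, at -0.45 (SE 0.28) and -0.42 (SE 0.31) in its 2 probe sets, both of which carry the suffix _r. Ddx24 was also below 0 in both of its probe sets (-0.18 and -0.19).

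The DEAH-box helicases did not lean to one side. Of 6 probe sets 3 lay above 0, with a median of 0.01 that was -0.10 without wild type 2. Dhx15, which takes the spliceosome apart after splicing, read 150, 131, 137, 101 and 147 in knockout 1 to 5, against 164, 105, 142 and 142 in wild type 1 to 4 (log2 -0.05, SE 0.17). Dhx16, which prepares the spliceosome for its first step, gave -0.02 (SE 0.19). Dhx36, which unwinds G-quadruplexes, gave 0.25 (SE 0.28), Dhx9 0.18 (SE 0.21), Dhx40 0.03 (SE 0.19) and the mitochondrial helicase Dhx30 -0.13 (SE 0.23).

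Where a gene was read more than once, its probe sets mostly pointed the same way. Among 23 genes with over 1 usable probe set, 16 had all of them above 0 and 3 (Ddx24, Ddx27 and Sf3a2) all below 0. In the other 4 (Ddx1, Ddx47, Prpf19 and Srsf4) the signs were mixed, with a gap of at most 0.5 between probe sets. In those 4 genes it was the probe set with a suffix that lay below 0. Probe sets of a gene are hybridised with the same RNA on the same array, so their likeness is no replication over mice.

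**Figure D4:**
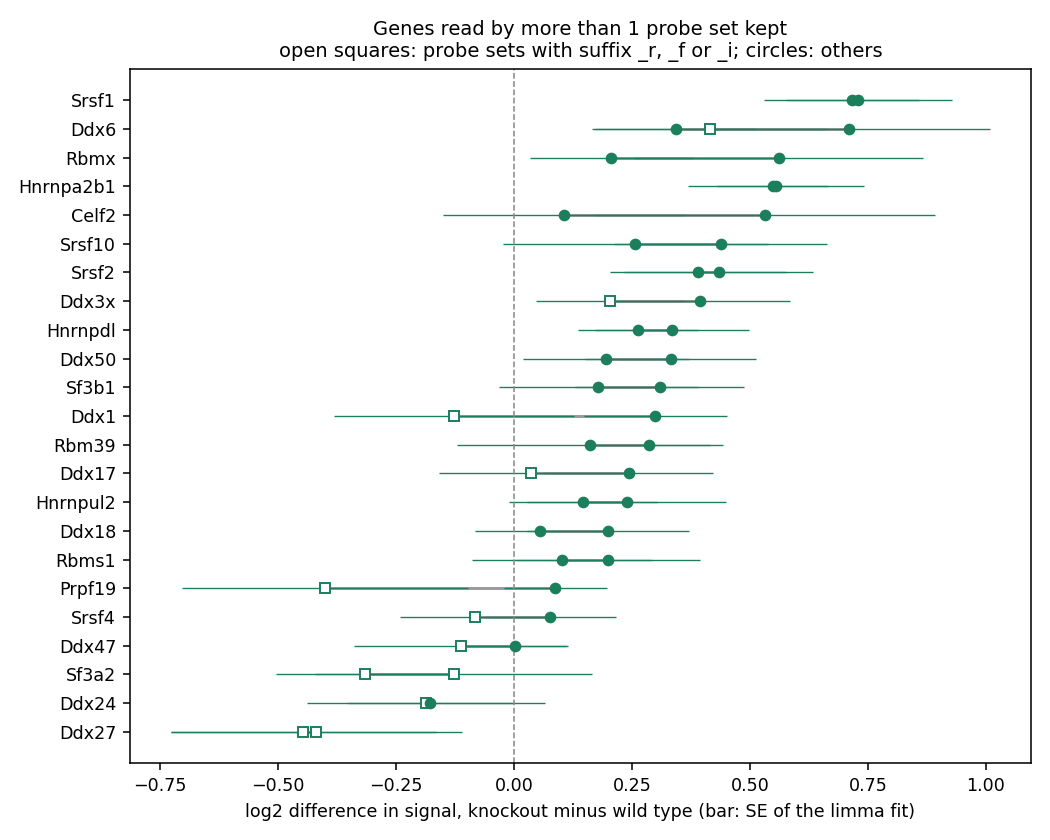
Log2 difference, knockout minus wild type (x axis), of each usable probe set of the 23 genes with more than 1 (y axis); thin bars are the SE of the limma fit. Open squares are probe sets with the suffix _r, _f or _i. Both probe sets of Srsf1 lie near 0.72 and those of Hnrnpa2b1 near 0.55, while the lowest are those of Ddx27, both open squares.

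Over all arrays, members varied more among the wild-type than among the knockout mice. With wild type 2 left out the order was reversed, and with knockout 4 left out as well the wild-type mice again varied more. The median SD of a member's log2 signal was 0.22 in the knockout group and 0.31 in the wild-type group, and 0.19 in the wild-type group without wild type 2. Without knockout 4 the knockout SD was 0.16. Over all usable probe sets the group medians were 0.25 in knockout and 0.26 in wild-type skin, and 0.19 in each without those same mice.

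In a list of other spliceosome and splicing-regulatory genes, 53 of 65 usable probe sets (54 genes) lay above 0, with a median of 0.15 that was 0.11 without wild type 2. None passed limma's test, 8 lay higher and 0 lower at its unadjusted threshold of 0.05, where 5.45% and 3.96% of all usable probe sets did, and in 2 all knockout values lay above all wild-type values, where 1.8% of all did. Khdrbs1, or Sam68, a signal-responsive splicing regulator, read 64, 80.2, 58.7, 83.6 and 60.1 in knockout 1 to 5, against 49.5, 38.7, 44.1 and 39.5 in wild type 1 to 4 (log2 0.68, SE 0.20). Sfpq, a splicing factor of nuclear paraspeckles, read 181, 182, 172, 254 and 194 against 152, 106, 106 and 129 (log2 0.68, SE 0.16). In both, all knockout mice lay above all wild-type mice, but the 4 wild-type signals of Khdrbs1 were each below the usable level of their array, so that this probe set counted as usable through the knockout mice alone. The lowest of the list were Sf1, the branch-point binding protein, at -0.31 (SE 0.16), and Cwc15 at -0.21 (SE 0.14).

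In a list for mRNA 3'-end formation and decay, 17 of 29 usable probe sets (24 genes) lay above 0, with a median of 0.14 that was 0.08 without wild type 2. None passed limma's test, while 5 lay higher and 1 lower at its unadjusted threshold, where 5.45% and 3.96% of all usable probe sets did. Papola, the poly(A) polymerase, read 103, 116, 122, 109 and 103 in knockout 1 to 5, against 98.9, 54.2, 71.5 and 79.7 in wild type 1 to 4, without overlap (log2 0.57, SE 0.18). Zfp36l2, which binds AU-rich elements and promotes decay, gave 0.82 (SE 0.40), with knockout 4 at 253 and the other knockout mice at 90.3 to 139, against 33.2 to 119 in wild-type skin. The poly(A)-binding protein Pabpc4 gave -0.41 (SE 0.14), and Cpsf4, a subunit of the cleavage and polyadenylation complex, -0.24 (SE 0.15).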

How the data were processed

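RNA of 9 mouse skins was measured on 9 arrays. Signals came from the authors' run of MAS5, version 5.0, per the labels' protocols. The deposited values are natural log signals, a scale settled from the numbers, since their exponentials are whole multiples of 0.1 (tolerance 0.002) in every array, with a 2% trimmed mean of 200.11 to 200.133. Here they were rescaled to log2, with no further normalisation or pseudocount. Detection calls were not used here, and 1 value was missing (knockout 1). An array has no sequencing depth, so the number of mice limits the precision.

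Control probe sets (66) were left out and the usable level was as given above. Genes come from the platform annotation, which can be old, and all 150 member probe sets matched the GRCm38.p6 gene table. Differences were fitted in R 4.3.3 with limma 3.58.1 (mean-variance trend, two-sided, Benjamini-Hochberg). Groups were called free of overlap on signals rounded to 0.1, so ties count as overlap. The Cd1d1 check is an exact permutation test over the arrays. The procedure was tested on simulated data.

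Named genes are those behind the group's choice, members whose groups do not overlap, and in each family up to 3 with the largest and 2 with the smallest difference and the 2 with the brightest wild-type signal; further genes were added after their values were seen. The members, gene lists and rules were chosen with earlier results of these data known. The alternatives were other scalings, pseudocounts of 16 and 64, filters, tests, array weights, a hair follicle covariate, blocks and left-out arrays. Leaving out knockout 4 and wild type 2 together was added after seeing the data.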

Additional observations from a re-analysis of the deposited data

Results flagged for a closer look

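Within a genotype, the gap between the most extreme mouse and the next one was compared with the range of the group by Dixon's criterion. Of 132 groups of values, 12 exceeded it. The criterion's chance share of about 1 in 20 does not apply here. Many of the probe sets were named for their difference, which a single extreme mouse can enlarge, and all groups come from the same arrays. Nothing is read from the count. Knockout 4 accounts for 7 of these, wild type 2 for 4 and knockout 3 for 1. Knockout 4 was far below the other knockout mice in Snrpb (2291, others 4782 to 5414), Snrpb2 (55.8, others 134.5 to 165.8), Sf3a2 (828.9, others 1452 to 1704), U2af2 (1322, others 2044 to 2280), Srsf2 (1912, others 3231 to 3749) and Ddx27 (26.6, others 52.4 to 62.1). In Ddx50 it was far above them (537.5, others 379.7 to 408.3). Wild type 2 was far above the other wild-type mice in the Sm protein genes Snrpe (798.4, others 482.8 to 497.9) and Snrpg (710.4, others 435.0 to 471.9). It was far below them in the family-wide probe set of Prpf19 (38.4, others 58.1 to 62.7) and in the centred median of the Rbm family (-0.22, others 0.02 to 0.07). Knockout 3 was far below the other knockout mice in Prpf31 (71.8, others 123.4 to 140.5).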

How the results depend on the processing

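The member median of 0.17 stayed above 0 in all 25 alternatives. It was 0.12 with median centring, 0.14 with quantile normalisation, 0.11 with a pseudocount of 64, 0.10 with array weights and 0.15 with 1 probe set per gene. When 1 array was left out it was 0.08 to 0.20, and its lowest value was 0.07, without knockout 4 and wild type 2. The group was chosen on this contrast and the alternatives use the same arrays, so nothing is read from the constant sign. The Welch test and the fit without a trend cannot change the median. No member passed the adjusted threshold under any of the alternatives. Members at the unadjusted threshold of 0.05 numbered 16 of 118, where 720 of all 7658 usable probe sets stood. They numbered 10 with median centring (688 of all) and 10 by the per-probe-set Welch test (581 of all). When 1 array was left out they numbered 11 to 25, with 11 without wild type 2 (742 of all) and 25 without wild type 4 (707 of all). Nothing is read from these counts. Over the whole array 4 probe sets passed, with 7 at a pseudocount of 64, 9 with array weights, 2 with 1 probe set per gene, 10 within the 7-decimal arrays, 10 without knockout 4 and wild type 2, and 4 to 8 when 1 array was left out. The Welch test passed 0. The replicate numbers were no sign of pairing (same-numbered mice correlated at 0.11, -0.01, -0.05 and 0.02). With the replicate block 1 probe set passed and the member median was 0.17. At the unadjusted threshold stood 14 members, where 611 of all 7658 usable probe sets did. Among 1346 alternative values of the 55 named member probe sets, 1331 moved by less than the spread between mice and 53 changed sign, in 20 probe sets. The 1331 include values that could not move. The Welch test, the fit without a trend, the other filters and 1 probe set per gene leave a probe set's difference as it was. The count is therefore no measure of stability. The causes were not tested. With 5 against 4 mice and dim signals open to large relative error, small differences cannot be resolved here.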
